A study of Mus musculus with 29 samples.

Results

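The genes described here are 40 cell cycle genes of the mouse, from a list chosen with earlier results of these data known. They are the CDK inhibitor genes Cdkn1a and Cdkn1c, 17 genes of the entry into and passage through S phase, and 21 genes of G2 and M phase. Each gene was represented by its brightest array probe, and 39 of the 40 had a probe whose accession matched the gene. No probe matched Gins1, a subunit of the replicative helicase. All 39 were well above background on all 29 arrays, and they stand among 15357 genes tested out of 17178 with a matched probe.

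Single-colour microarrays measured RNA of whole lung. The C57BL/6 mice, aged 6 to 8 weeks, were wild type or Klf15 -/- (called knockout here), and were given the synthetic glucocorticoid dexamethasone (2.5 mg/kg) or saline as vehicle 4 or 8 h before. At 4 h there were 4 wild-type and 3 knockout arrays for saline, and 4 of each genotype for dexamethasone. At 8 h there were 3 wild-type and 4 knockout arrays for saline, and likewise 3 and 4 for dexamethasone. The design asks how dexamethasone, which acts through the glucocorticoid receptor, and Klf15, a Krüppel-like transcription factor whose gene the receptor induces, shape expression over time. The sources used here do not say how the knockout allele was made. The labels call the samples biologic quadruplicates, and 3 or 4 samples per group were analysed here. The p-values measure only the spread between samples of the same group, estimated jointly over all 8 groups.

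Cyclin-dependent kinases drive cells through the cycle and are held back by inhibitor proteins. The Cdkn1 genes encode p21 (Cdkn1a), p27 (Cdkn1b) and p57 (Cdkn1c), which bind cyclin-CDK complexes. p21 is a classical target of p53, and both p21 and p57 are known to rise with glucocorticoids in several cell types. Entry into S phase is driven by E2F factors, which turn on genes for the MCM helicase, nucleotide supply and cyclin E. The genes of G2 and M phase are turned on later, in large part by FOXM1 and by the B-MYB and MuvB complex, through CHR and CCAAT elements in their promoters. In adult lung only a small share of cells divides, and these include epithelial, endothelial and immune cells, so levels of these genes in whole lung RNA add up over many cell types.

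Because these genes are known as groups that share promoter elements, the stretch of 160 bases before the start site is shown for 1 inhibitor gene, 4 S phase genes and 3 M phase genes whose values are described here. Sequences are those of RefSeq on build GRCm38.p6, given 5′ to 3′ on the strand of the gene, in lower case. Capitals mark matches, on either strand, to CCAAT, to the CHR letters TTTGAA, to 3 E2F words (TTTCCCGC, TTTGGCGC and TTTCGCGC) or, in Cdkn1a, to the paired core letters of a p53 site. The stretches lie at chr17:29090819-29090978 (+ strand) for Cdkn1a, chr1:20820313-20820472 (- strand) for Mcm3, chr8:75109349-75109508 (+ strand) for Mcm5, chr1:128359706-128359865 (- strand) for Mcm6, chr12:24708094-24708253 (+ strand) for Rrm2, chr10:69352913-69353072 (- strand) for Cdk1, chr9:70421555-70421714 (- strand) for Ccnb2 and chr4:124936918-124937077 (- strand) for Cdca8. All lie just before the annotated start of transcription, and Cdkn1a has 2 start sites in the table, of which the first listed is shown.
Cdkn1a: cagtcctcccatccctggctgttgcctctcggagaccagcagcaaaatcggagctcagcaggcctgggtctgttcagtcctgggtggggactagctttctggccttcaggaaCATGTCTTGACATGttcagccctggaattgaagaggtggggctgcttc
Mcm3: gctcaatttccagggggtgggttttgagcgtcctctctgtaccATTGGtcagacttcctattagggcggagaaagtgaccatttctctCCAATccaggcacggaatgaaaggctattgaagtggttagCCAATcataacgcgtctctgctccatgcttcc
Mcm5: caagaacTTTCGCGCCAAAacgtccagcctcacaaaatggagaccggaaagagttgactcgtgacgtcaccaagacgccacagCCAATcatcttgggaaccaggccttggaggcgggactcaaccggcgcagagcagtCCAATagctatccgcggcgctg
Mcm6: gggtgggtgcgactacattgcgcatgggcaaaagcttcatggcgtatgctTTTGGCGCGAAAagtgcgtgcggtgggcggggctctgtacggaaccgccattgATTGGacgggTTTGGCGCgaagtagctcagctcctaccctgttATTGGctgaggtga
Rrm2: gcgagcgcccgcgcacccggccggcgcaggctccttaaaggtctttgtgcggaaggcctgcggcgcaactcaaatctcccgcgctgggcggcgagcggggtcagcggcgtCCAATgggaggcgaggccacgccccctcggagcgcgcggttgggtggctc
Cdk1: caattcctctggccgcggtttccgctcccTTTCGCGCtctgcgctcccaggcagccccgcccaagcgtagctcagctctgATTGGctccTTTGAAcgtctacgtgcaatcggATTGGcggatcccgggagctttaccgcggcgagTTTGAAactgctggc
Ccnb2: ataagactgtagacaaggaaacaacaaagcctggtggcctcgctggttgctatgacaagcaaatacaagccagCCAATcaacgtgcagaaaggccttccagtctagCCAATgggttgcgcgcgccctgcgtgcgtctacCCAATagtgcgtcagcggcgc
Cdca8: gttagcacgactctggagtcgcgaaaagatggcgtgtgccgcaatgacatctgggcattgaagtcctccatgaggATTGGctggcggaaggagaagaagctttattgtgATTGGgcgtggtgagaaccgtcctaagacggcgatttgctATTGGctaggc

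Promoters of 31 members were in the table, and 250 bases before the start were searched in each. The genes Mcm4, Gins1, Ccne2, Ccna2, Foxm1, Aurkb, Kif20a, Tpx2 and Cdkn1c had none there. CCAAT was present in 14 of 16 M phase promoters and 8 of 14 S phase promoters, against 37.5% of the 27025 genes in the table. The E2F words were present in 4 of 14 S phase promoters (Cdc6, Mcm5, Mcm6 and Mcm7) and 1 of 16 M phase promoters (Cdk1), against 1.78% of genes. In Mcm5 and Mcm6 a pair of E2F words on opposite strands overlaps. The CHR letters were found in 6 of 16 M phase promoters (Cdk1, Ccnb2, Cdc20, Kif11, Top2a and Mki67) and 1 of 14 S phase promoters (Mcm2), against 18.3% of genes. The p53 letters were found only in Cdkn1a among the 31 promoters, and in 0.57% of genes. They lay from 48 to 35 bases before the first listed of its 2 start sites, and their distance from the other is not given here. Letters of a palindromic glucocorticoid response element were in 0 of the 31 windows and in 0.44% of genes. Letters of a KLF site, CCNCNCCC, were in 20 of the 31 windows (64.5%) and in 48.5% of genes. These matches describe letters in a short window and do not show binding.

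Levels are given as the log2 of the processed probe signal relative to the 75th percentile of the same array, so that 0 is the level of that percentile, and changes are differences of these levels. One linear model (limma) was fitted over all genes, and a gene is said to have risen, fallen or been called where its Benjamini-Hochberg adjusted p was under 0.05. Levels of different probes are compared only as probe brightness, not as amounts of RNA. As checks of the labels, Klf15 lay between -0.89 and 1.37 on knockout arrays and between 1.95 and 4.29 on wild-type arrays, with group differences of -2.94, -3.04, -2.95 and -2.91 under saline at 4 and 8 h and dexamethasone at 4 and 8 h. Its probe also rose with dexamethasone in both genotypes, by 1.93 and 0.79 in wild type and by 1.92 and 0.92 in the knockout at 4 and 8 h, and the sources used here do not say whether the probe lies in the deleted part. The glucocorticoid target Tsc22d3 rose by 1.54 and 0.47 with dexamethasone in wild type at 4 and 8 h, and by 1.70 and 0.57 in the knockout (at 8 h 0.30, not called, after quantile normalization in the knockout, and 0.24, not called, with slide as a block in wild type). The mean log2 level of 5 alveolar epithelial markers lay between 4.12 and 4.55 on all arrays. The 7 knockout saline arrays stood apart in that, across 2547 genes with bright and dim probes, the bright-to-dim log2 ratio was -0.37 to -0.12, against -0.08 to 0.29 on the 22 other arrays. This touches dexamethasone effects in the knockout and genotype differences under saline, so values after quantile normalization are given there where they change a call. The 75th percentile of the processed signal averaged 2072 ± 238 (SD, n = 15) with dexamethasone and 2719 ± 381 (SD, n = 14) with saline.

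Cdkn1a showed the largest dexamethasone response of all 39 members in each of the 4 dexamethasone comparisons. It was about 8-fold higher at 4 h in both genotypes. At 8 h the response was smaller in wild type (3.30-fold) than at 4 h, and in the knockout it was 4.91-fold. At 8 h under dexamethasone the knockout held 2.26 times the wild-type level.

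In wild type at 4 h, the Cdkn1a level was 0.77, 1.09, 0.60 and 0.69 on the saline arrays and 3.90, 4.08, 3.79 and 3.54 on the dexamethasone arrays. At 8 h it was 0.36, 0.78 and 0.59 under saline and 2.45, 2.06 and 2.38 under dexamethasone. Every dexamethasone array lay above every saline array, and the 3 arrays at 8 h lay below the 4 at 4 h. In the knockout the levels at 4 h were 1.35, 0.59 and 0.77 under saline and 4.06, 4.07, 3.78 and 3.79 under dexamethasone. At 8 h they were 1.20, 1.15, 0.94 and 1.41 under saline and 3.94, 3.34, 3.14 and 3.47 under dexamethasone. All 4 knockout arrays at 8 h under dexamethasone lay above the 3 wild-type arrays of that condition, and the knockout saline arrays at 8 h also lay above the wild-type ones. The dexamethasone effects were 3.04 (SE 0.17, adjusted p = 3.4e-12) and 1.72 (SE 0.20, adjusted p = 1.3e-06) in wild type at 4 and 8 h. In the knockout they were 3.02 (SE 0.19, adjusted p = 1.4e-11) and 2.30 (SE 0.17, adjusted p = 5.1e-10). All 4 rises were called in each of the 7 alternative processings and in each of the 29 fits that left out 1 array. Within the slides that held both groups, each with 1 array a group, the rise was 3.39 and 3.18 (wild type, 4 h), 1.79 (wild type, 8 h), 3.01 (knockout, 4 h) and 2.27 and 1.99 (knockout, 8 h).

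The fall of the Cdkn1a effect from 4 to 8 h was called in wild type at -1.32 (95% interval -1.86 to -0.77, limma adjusted p = 0.0027), also in every alternative and every fit without 1 array. In the knockout it was -0.72 (-1.25 to -0.19, adjusted p = 0.16). The genotype difference of Cdkn1a under dexamethasone was 0.10 at 4 h (-0.26 to 0.45) and 1.18 at 8 h (0.79 to 1.56, limma adjusted p = 0.00054), and the latter call held in every alternative and every fit without 1 array. Under saline it was 0.12 at 4 h (-0.27 to 0.51) and 0.60 at 8 h (0.22 to 0.99, adjusted p = 0.036). The saline call at 8 h ended without wild-type replicate 37 or 39 or without knockout replicate 45, 46 or 48. Within the 1 slide that held both groups the saline difference at 8 h was 0.82. The dexamethasone effect itself did not differ by the test between genotypes, by -0.02 at 4 h (-0.55 to 0.50) and by 0.57 at 8 h (0.03 to 1.12, limma adjusted p = 0.18).

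**Figure D1:**
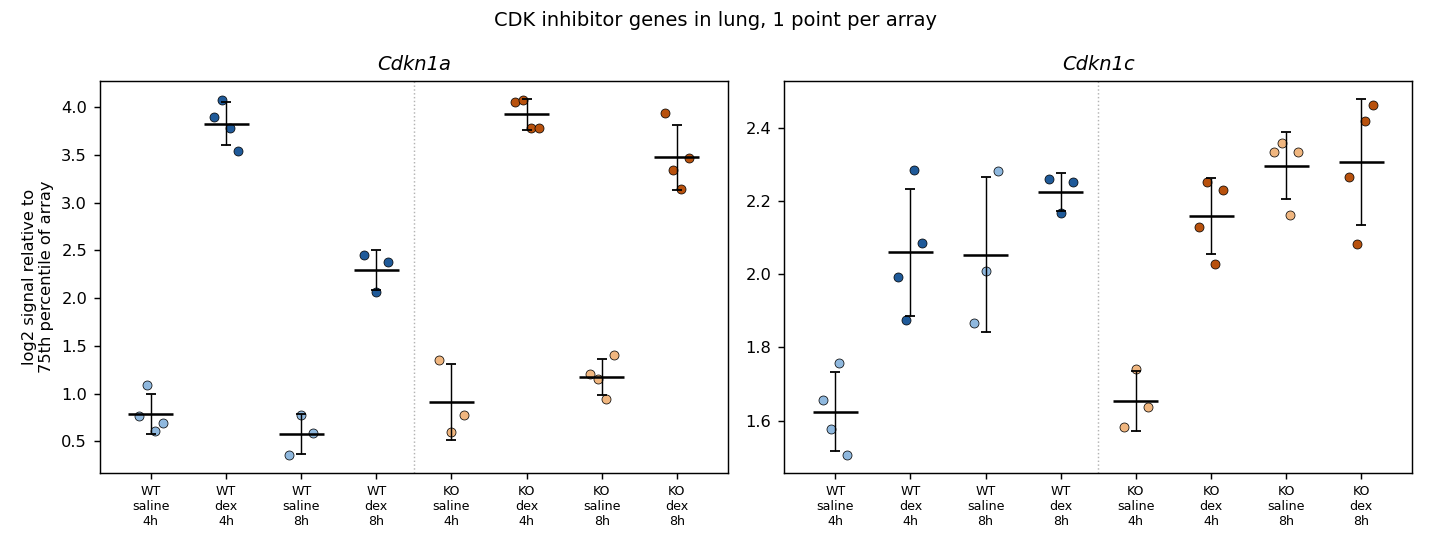
Levels of Cdkn1a and Cdkn1c (vertical axis, log2 of signal over the array's 75th percentile) in the 8 groups (horizontal axis, WT wild type, KO Klf15 knockout, dex dexamethasone). Points are arrays, bars the mean with its SD. Cdkn1a dexamethasone arrays lie between 2.06 and 4.08 and saline arrays between 0.36 and 1.41.

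Cdkn1c, an imprinted gene whose product p57 marks quiescent and differentiating cells, rose at 4 h in both genotypes and was not called at 8 h. The change of its effect from 4 to 8 h was -0.26 in wild type (limma adjusted p = 0.39) and -0.50 in the knockout (adjusted p = 0.058), so the times were not shown to differ. Its levels at 4 h in wild type were 1.66, 1.58, 1.76 and 1.51 under saline and 1.99, 1.88, 2.29 and 2.09 under dexamethasone. In the knockout at 4 h they were 1.58, 1.74 and 1.64 under saline and 2.13, 2.25, 2.03 and 2.23 under dexamethasone. The groups did not overlap in either genotype, and the rise was 0.44 (SE 0.10, limma adjusted p = 0.00088) and 0.51 (SE 0.10, adjusted p = 0.00038). At 8 h the saline arrays of wild type lay at 1.87, 2.01 and 2.28 and the dexamethasone arrays at 2.26, 2.17 and 2.25. Those of the knockout lay at 2.33, 2.36, 2.16 and 2.34 under saline and 2.27, 2.08, 2.42 and 2.46 under dexamethasone. These groups overlapped, and the effects were 0.17 (95% interval -0.06 to 0.40) and 0.01 (-0.19 to 0.21). Cdkn1c itself was higher under saline at 8 than at 4 h by 0.54 (0.38 to 0.69, limma adjusted p = 8.1e-05, mean of genotypes), so that the saline arrays at 8 h lay near the level of the dexamethasone arrays at 4 h. That call held in every alternative and every fit without 1 array. Cdkn1c was not called in any genotype comparison, with 0.03 and 0.24 under saline and 0.10 and 0.08 under dexamethasone at 4 and 8 h, but after quantile normalization the saline difference at 8 h was 0.34 and called (limma adjusted p = 0.044).

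In wild type at 4 h, 15 of 39 members were called (38.5%), where 36.6% of all genes tested were called. Of these 6 rose and 9 fell, against 14.4% and 22.2% of all genes in the 2 directions, so neither share stands far from that of all genes. All 9 members that fell were S phase genes, and Cdc6 and Rrm2 were the S phase genes that rose. Of the 21 M phase genes 0 fell and 2 were called higher, Plk1 and Bub1. The median change was -0.30 over 16 S phase genes and -0.09 over 21 M phase genes, beside -0.03 over all genes tested.

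In wild type at 8 h, 16 of 39 members were called, 1 higher (Cdkn1a) and 15 lower, where 23.5% of all genes were called, 9.21% higher and 14.3% lower. The 15 were 9 S phase and 6 M phase genes. The median change was -0.40 over S phase and -0.46 over M phase genes, beside -0.06 over all genes, and 12 of 16 and 19 of 21 had estimates below 0. Of the 16 calls 6 were made in every alternative and every fit without 1 array: Cdkn1a, Mcm2, Mcm5, Tk1, E2f1 and Foxm1. The number of calls dropped to 10 without saline replicate 38 and to 9 without dexamethasone replicate 54.

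In the knockout, 11 members were called at 4 h (6 higher and 5 lower), where 42.4% of all genes were called, 24.7% higher and 17.8% lower. The count was 7 without saline replicate 43 and 7 without saline replicate 44, and with quantile normalization the split was 4 higher and 5 lower. With that normalization Mcm6 and Pcna were no longer called at 4 h, nor was Ccnb2 (0.40, limma adjusted p = 0.051), while Aurka, the centrosomal Aurora kinase, was newly called at 0.39 (adjusted p = 0.032). At 8 h, 14 members were called (3 higher and 11 lower), where 42.6% of all genes were called, 24.9% higher and 17.7% lower. Of the 11 that fell, 8 were S phase and 3 were M phase genes. With quantile normalization Cdt1 (-0.29, limma adjusted p = 0.055), Pcna and Top2a (-0.56, limma adjusted p = 0.072) were no longer called at 8 h, and Mcm4 (-0.16, adjusted p = 0.0499) and Mcm6 (-0.22, adjusted p = 0.043) were newly called. At 8 h the median change was -0.38 over S phase genes and 0.04 over M phase genes, beside 0.10 over all genes.

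**Figure D2:**
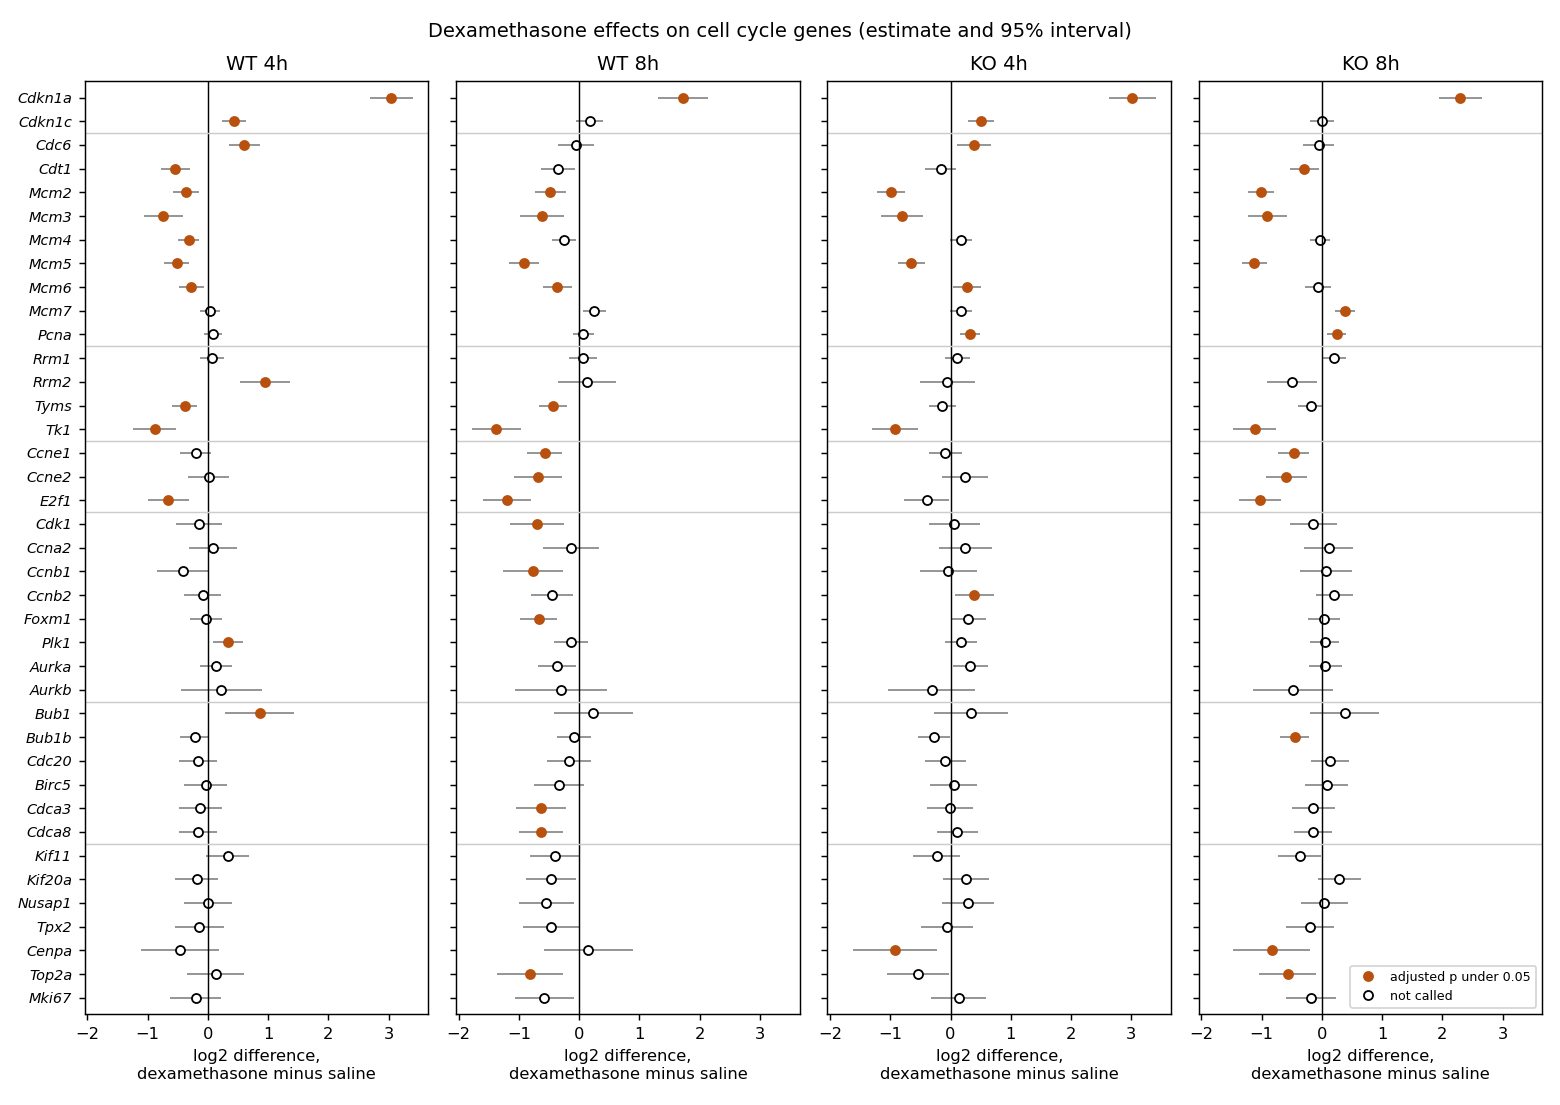
Dexamethasone effect on each of the 39 members (log2 difference, horizontal axis, with 95% interval) in the 4 comparisons, ordered by role from inhibitors at the top through origin licensing, nucleotide supply, the G1/S switch, G2/M kinases, checkpoint and anaphase to spindle genes. Filled points were called. Cdkn1a lies at 1.72 to 3.04, and the S phase genes Mcm2, Mcm5 and Tk1 lie below 0 in all 4 panels.

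**Figure D3:**
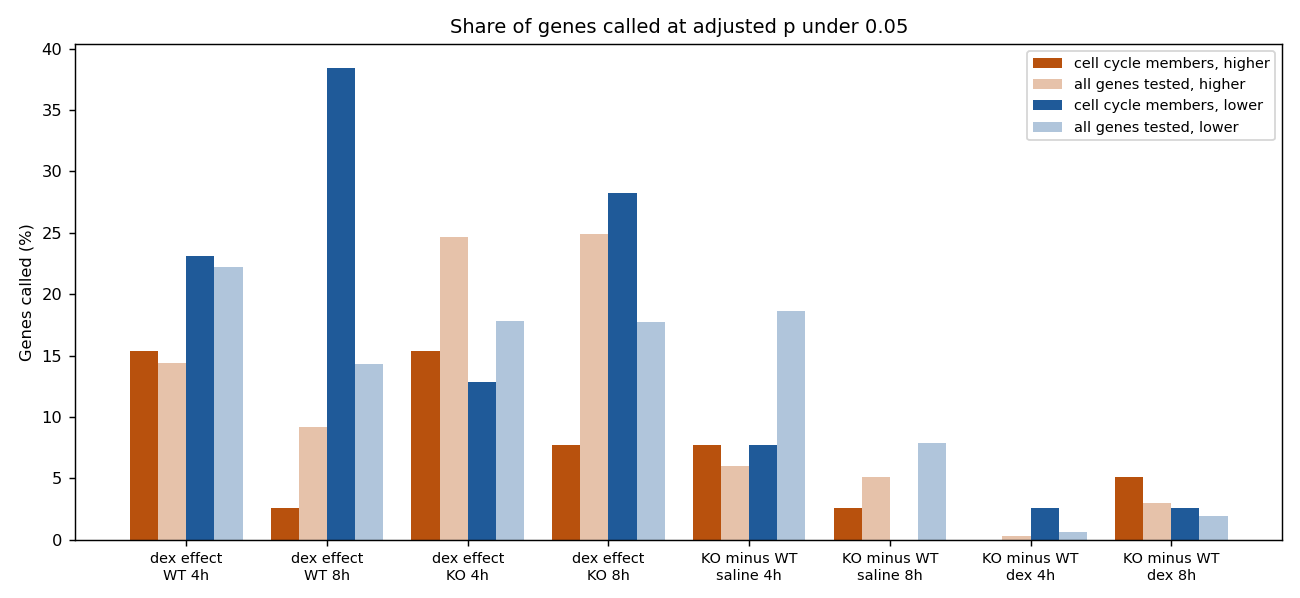
Percent of the 39 members and of the 15357 genes tested that were called higher or lower (vertical axis) in the dexamethasone and genotype comparisons (horizontal axis). Bars start at 0. In wild type at 8 h, 15 of 39 members and 14.3% of all genes were called lower.

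Among the genes that license origins and build the helicase, dexamethasone lowered Mcm2, Mcm3 and Mcm5 in all 4 comparisons. These are subunits of the MCM complex that unwinds DNA at replication origins. Mcm5 fell the most at 8 h, by 0.92 (SE 0.12, adjusted p = 4.6e-06) in wild type and by 1.12 (SE 0.10, adjusted p = 1.0e-08) in the knockout. Subunits of the same complex did not move together: Mcm7 had estimates above 0 in all 4 comparisons and rose in the knockout at 8 h by 0.38 (adjusted p = 0.00056).

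Mcm5 levels in wild type at 4 h were 0.33, 0.35, 0.16 and 0.26 under saline and -0.33, 0.07, -0.39 and -0.33 under dexamethasone. At 8 h they were 0.18, 0.46 and 0.23 under saline and -0.56, -0.73 and -0.60 under dexamethasone. Dexamethasone arrays lay below saline arrays at both times, with replicate 50 closest to them. In the knockout the levels were 0.31, 0.45 and 0.38 under saline and -0.31, -0.39, -0.02 and -0.37 under dexamethasone at 4 h. At 8 h they were 0.33, 0.36, 0.56 and 0.20 against -0.74, -0.89, -0.81 and -0.59. These groups did not overlap, and the fall at 4 h was 0.52 in wild type (adjusted p = 0.00027) and 0.65 in the knockout (adjusted p = 4.5e-05). The genotype difference of the Mcm5 effect was not called at either time, and all 4 falls were called in every alternative and every fit without 1 array.

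Mcm2 fell in the knockout by 0.99 (SE 0.11) at 4 h and 1.01 (SE 0.10) at 8 h, and in wild type by 0.36 (SE 0.10) at 4 h and 0.48 (SE 0.12) at 8 h. The knockout saline arrays carried the higher start, at -0.77, -0.77 and -0.81 at 4 h, where the wild-type saline arrays lay at -1.42, -1.32, -1.34 and -1.55. Under dexamethasone at 4 h the wild-type arrays lay at -1.83, -1.78, -1.82 and -1.66 and the knockout arrays at -1.95, -1.98, -1.41 and -1.77. The saline groups were apart and the dexamethasone groups overlapped. The saline difference at 4 h was 0.62 (SE 0.11, limma adjusted p = 0.00087) and 0.57 with quantile normalization, and it was called in every alternative and every fit without 1 array. The difference of the dexamethasone effects at 4 h was -0.63 (adjusted p = 0.012), and it was not called with normexp, with slide as a block or in the deposited table. At 8 h it was -0.53 (adjusted p = 0.0501). Both 4 h comparisons rest on the same 3 knockout saline arrays, which stood apart in their bright-to-dim ratio.

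Mcm3 fell by 0.74 and 0.62 in wild type at 4 and 8 h and by 0.80 and 0.90 in the knockout, and its wild-type call at 8 h ended without saline replicate 38. Mcm4 and Mcm6 fell in wild type at 4 h, by 0.32 (adjusted p = 0.0032) and 0.28 (adjusted p = 0.035), and Mcm6 at 8 h by 0.36 (adjusted p = 0.026). The Mcm6 falls ended with 5 different arrays left out at 4 h and 4 at 8 h, and at 4 h also with slide as a block. In the knockout the estimates at 4 h were 0.18 for Mcm4, not called, and 0.28 for Mcm6 (adjusted p = 0.047), and the Mcm6 rise was called in 1 of the 7 alternatives, with 0.10 after quantile normalization. The effect of dexamethasone on Mcm4 and Mcm6 differed between genotypes at 4 h by 0.50 (adjusted p = 0.011) and 0.55 (adjusted p = 0.017), with the knockout lower under saline by 0.37 and 0.43. After quantile normalization these saline differences were 0.22 and 0.28 in size, still called, and the call for the difference of the Mcm6 effects ended.

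Cdc6 and Cdt1, which load the MCM complex, moved in opposite directions in wild type at 4 h. Cdc6 lay at -2.83, -2.91, -3.41 and -3.09 under saline and -2.73, -2.14, -2.45 and -2.51 under dexamethasone, and rose by 0.60 (SE 0.12, limma adjusted p = 0.00050). Its second, dimmer probe gave 0.99. At 8 h the Cdc6 effect was -0.06, and the change of the effect from 4 to 8 h was -0.66 (adjusted p = 0.041), a call that ended with quantile normalization. Cdc6 rose under saline from 4 to 8 h by 0.39 (adjusted p = 0.024, also not called after quantile normalization). In the knockout at 4 h Cdc6 rose by 0.39 (adjusted p = 0.022), and that call ended with slide as a block and without saline replicate 43 or 44 or dexamethasone replicate 59. Cdt1 fell by 0.54 in wild type at 4 h (adjusted p = 0.00075) and had estimates of -0.36 at 8 h and -0.17 in the knockout at 4 h, neither called. At 8 h in the knockout it fell by 0.29 (adjusted p = 0.047), a call that ended after quantile normalization, with no filter on dim probes and in 14 of the fits without 1 array. Pcna, the sliding clamp of DNA polymerase, was not called in wild type, and its knockout rises of 0.33 and 0.24 at 4 and 8 h were 0.13 and 0.05 after quantile normalization and not called.

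Of the genes that supply nucleotides, Tk1, the salvage enzyme thymidine kinase, fell in all 4 comparisons in every alternative and every fit without 1 array. In wild type its levels at 8 h were -0.57, -0.13 and -0.70 under saline and -1.85, -1.90 and -1.77 under dexamethasone. In the knockout at 8 h they were -0.37, -0.46, -0.54 and -0.65 against -1.15, -1.95, -1.89 and -1.47. No array of a dexamethasone group reached a saline array. The falls were 0.88 (SE 0.17) and 1.37 (SE 0.20) in wild type at 4 and 8 h and 0.92 (SE 0.19) and 1.11 (SE 0.17) in the knockout. Tyms, thymidylate synthase, fell by 0.39 and 0.43 in wild type, by both of its probes, and had estimates of -0.14 and -0.19 in the knockout that were not called. The Tyms call in wild type at 8 h ended without dexamethasone replicate 54. Rrm1, the large subunit of ribonucleotide reductase, had estimates of 0.06, 0.06, 0.12 and 0.19 in wild type at 4 and 8 h and the knockout at 4 and 8 h, with 0 calls.

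Rrm2, the S phase subunit of ribonucleotide reductase, rose in wild type at 4 h, as Cdc6 did, while 9 S phase genes fell. At 4 h it lay at -3.06, -2.83, -3.28 and -2.55 under saline and at -2.15, -1.72, -2.13 and -1.92 under dexamethasone, without overlap. It rose by 0.95 (SE 0.20, limma adjusted p = 0.00063). In the knockout the saline arrays at 4 h lay at -3.17, -2.88 and -2.87 and the dexamethasone arrays at -3.32, -3.07, -2.50 and -3.21, which overlapped, with an effect of -0.05 (95% interval -0.50 to 0.41).

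Under dexamethasone Rrm2 was lower in the knockout than in wild type at 4 h, by -1.04 (SE 0.20, limma adjusted p = 0.0074), and this was the only member called there. At 8 h the wild-type dexamethasone arrays lay at -1.84, -2.77 and -2.52 and the knockout ones at -3.20, -3.55, -3.63 and -3.37, a difference of -1.06 (SE 0.22, adjusted p = 0.0060). The call at 4 h held in every alternative and every fit without 1 array, and the call at 8 h ended with slide as a block and without wild-type replicate 54. Under saline at 8 h the knockout arrays (-3.15 to -2.81) also lay below the wild-type ones (-2.73 to -2.07), a difference of -0.43 that was not called. The difference of the dexamethasone effects at 4 h was -0.999 (adjusted p = 0.027), and that call ended with quantile normalization, normexp, the deposited table and slide as a block, and without knockout saline replicate 43 or 44 or knockout dexamethasone replicate 57 or 58. At 8 h the difference of effects was -0.63, not called.

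**Figure D4:**
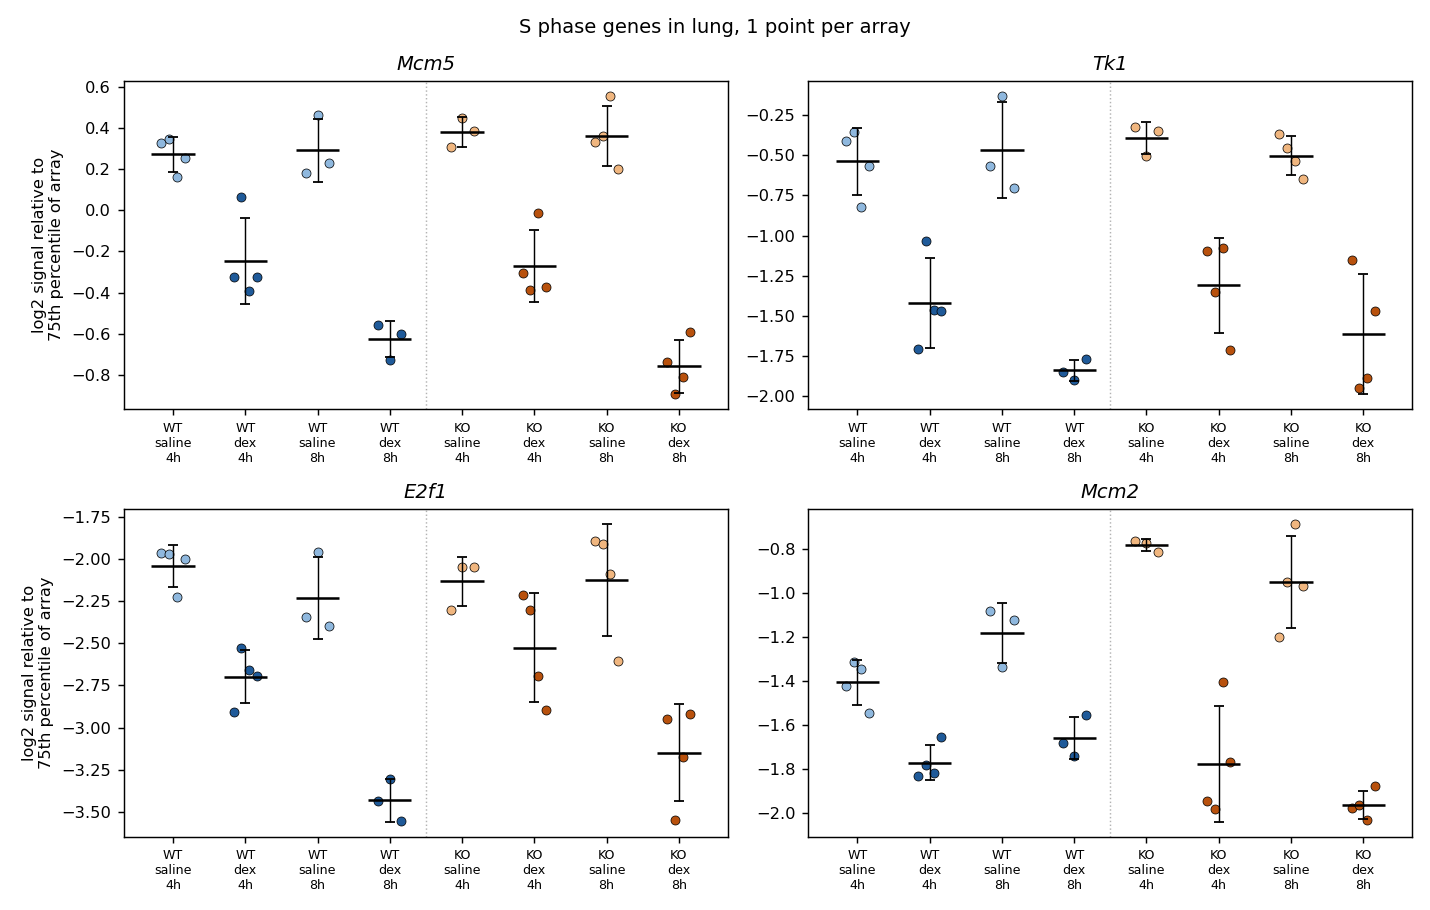
Levels of 4 S phase genes (vertical axis, log2 of signal over the array's 75th percentile) in the 8 groups (horizontal axis), with points for arrays and bars for mean and SD. For Mcm5, Tk1 and Mcm2 among the 4 genes shown (the other is E2f1), dexamethasone arrays lie below saline arrays of the same genotype and time.

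At the G1/S switch, E2f1, an activating E2F factor, and the cyclin E genes fell together at 8 h. E2f1 levels at 8 h were -2.34, -1.96 and -2.40 under saline and -3.44, -3.30 and -3.56 under dexamethasone in wild type, and -1.89, -1.91, -2.09 and -2.61 against -2.95, -3.55, -3.18 and -2.92 in the knockout. The groups did not overlap, and the falls were 1.20 (SE 0.19, limma adjusted p = 6.9e-05) and 1.02 (SE 0.17, adjusted p = 3.2e-05). At 4 h E2f1 fell by 0.66 in wild type (adjusted p = 0.0030), and the knockout estimate was -0.39, not called. At 4 h its second probe gave -0.14 in wild type, not called, and -0.25 in the knockout, called over probes. At 8 h that probe gave -0.64 in wild type and -0.68 in the knockout, both called over probes. Ccne1 fell at 8 h by 0.57 in wild type and 0.47 in the knockout, and Ccne2 by 0.68 and 0.59. The second probe of Ccne1 gave -0.43 and -0.07, neither called, and that of Ccne2 gave -0.41, not called, and -0.84. The Ccne2 call in wild type ended with normexp, in the deposited table, with slide as a block and without saline replicate 38 or dexamethasone replicate 54. At 4 h neither cyclin E gene was called in either genotype.

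Among the 21 G2 and M phase genes, dexamethasone calls were less frequent than among all genes except in wild type at 8 h. The share called was 9.52% in wild type at 4 h, and 9.52% and 14.3% in the knockout at 4 and 8 h. Of all genes 36.6%, 42.4% and 42.6% were called there. In wild type at 8 h the share was 28.6%, all lower, where 9.21% of all genes were called higher and 14.3% lower. Few of the M phase calls held in every setting. At 8 h in wild type 6 of 21 fell: Cdk1, the mitotic kinase, by 0.69; Ccnb1, its cyclin B1, by 0.77; Foxm1 by 0.67; Cdca3, a trigger of mitotic entry, by 0.63; Cdca8, the chromosomal passenger protein borealin, by 0.64; and Top2a, topoisomerase II alpha, by 0.82. Of these only Foxm1 was called in every alternative and every fit without 1 array. No M phase gene was called lower in wild type at 4 h, and in the knockout at 8 h Bub1b, Cenpa and Top2a were. For M phase genes the effect differed between genotypes at 8 h for Foxm1 alone by the test, and its change from 4 to 8 h in wild type was called for 0 of 21.

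Foxm1 levels at 8 h were -2.59, -2.72 and -2.78 under saline and -3.50, -3.40 and -3.21 under dexamethasone in wild type, and the fall had SE 0.15 and limma adjusted p = 0.0019. In the knockout they were -3.001, -2.96, -3.14 and -3.08 under saline and -2.77, -3.12, -3.26 and -2.88 under dexamethasone. Wild-type groups were apart and knockout groups overlapped, with a knockout effect of 0.04. The difference of the effects was 0.71 (95% interval 0.30 to 1.12, adjusted p = 0.038). It was the only member called in that comparison, and the call ended with quantile normalization, normexp, the deposited table and slide as a block, and when any of 9 arrays was left out. At 4 h the Foxm1 estimates were -0.03 in wild type and 0.29 in the knockout, neither called.

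Cdk1 lay at 8 h in wild type at -2.85, -2.86 and -3.09 under saline and at -3.99, -3.62 and -3.28 under dexamethasone. In the knockout at 8 h it lay at -3.06, -2.77, -2.90 and -2.76 under saline and at -2.48, -3.13, -3.25 and -3.20 under dexamethasone, where replicate 61 was the highest of the arrays at 8 h. The wild-type calls for Cdk1 (adjusted p = 0.022), Ccnb1 (adjusted p = 0.023) and Top2a (adjusted p = 0.026) by limma each ended without saline replicate 37 or 38 or dexamethasone replicate 54 or 55. That for Cdca3 (adjusted p = 0.022) ended without saline replicate 37 or dexamethasone replicate 54 or 55, and that for Cdca8 (adjusted p = 0.010) without dexamethasone replicate 54. With normexp or in the deposited table Cdk1, Ccnb1, Top2a and Cdca3 were not called. The 2 other Ccnb1 probes gave -0.23 and -0.36, not called. Mki67, the proliferation marker Ki-67, had an estimate of -0.58 (adjusted p = 0.078) at 8 h in wild type, and its second probe gave -0.83 there and -0.62 in the knockout at 8 h, both called over probes.

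Among checkpoint and spindle genes, Bub1b, the kinetochore checkpoint protein BUBR1, fell in the knockout at 8 h by 0.45 (limma adjusted p = 0.0037), and was not called with normexp or in the deposited table. Cenpa, the centromeric histone, fell in the knockout by 0.92 and 0.83 at 4 and 8 h, with an SE of 0.34 and 0.31, and each call ended in 5 of the fits without 1 array. Top2a fell in the knockout at 8 h by 0.57 (adjusted p = 0.0498), and none of the 7 alternatives called it. Bub1, a checkpoint kinase, rose by 0.86 in wild type at 4 h (adjusted p = 0.017), but its second, dimmer probe fell by 0.94, so its direction is not settled here. Plk1, polo-like kinase 1, rose by 0.34 (adjusted p = 0.028) and Ccnb2, cyclin B2, by 0.40 in the knockout at 4 h (adjusted p = 0.045), and neither call was made in every alternative. The Aurora kinase genes Aurka and Aurkb, Cdc20, Birc5, Kif11, Kif20a, Nusap1, Tpx2 and Ccna2 were not called in any dexamethasone comparison with the 75th percentile scaling. Aurkb lay between -5.47 and -3.92 over the arrays, with an SE of 0.32 to 0.37 for its effects.

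**Figure D5:**
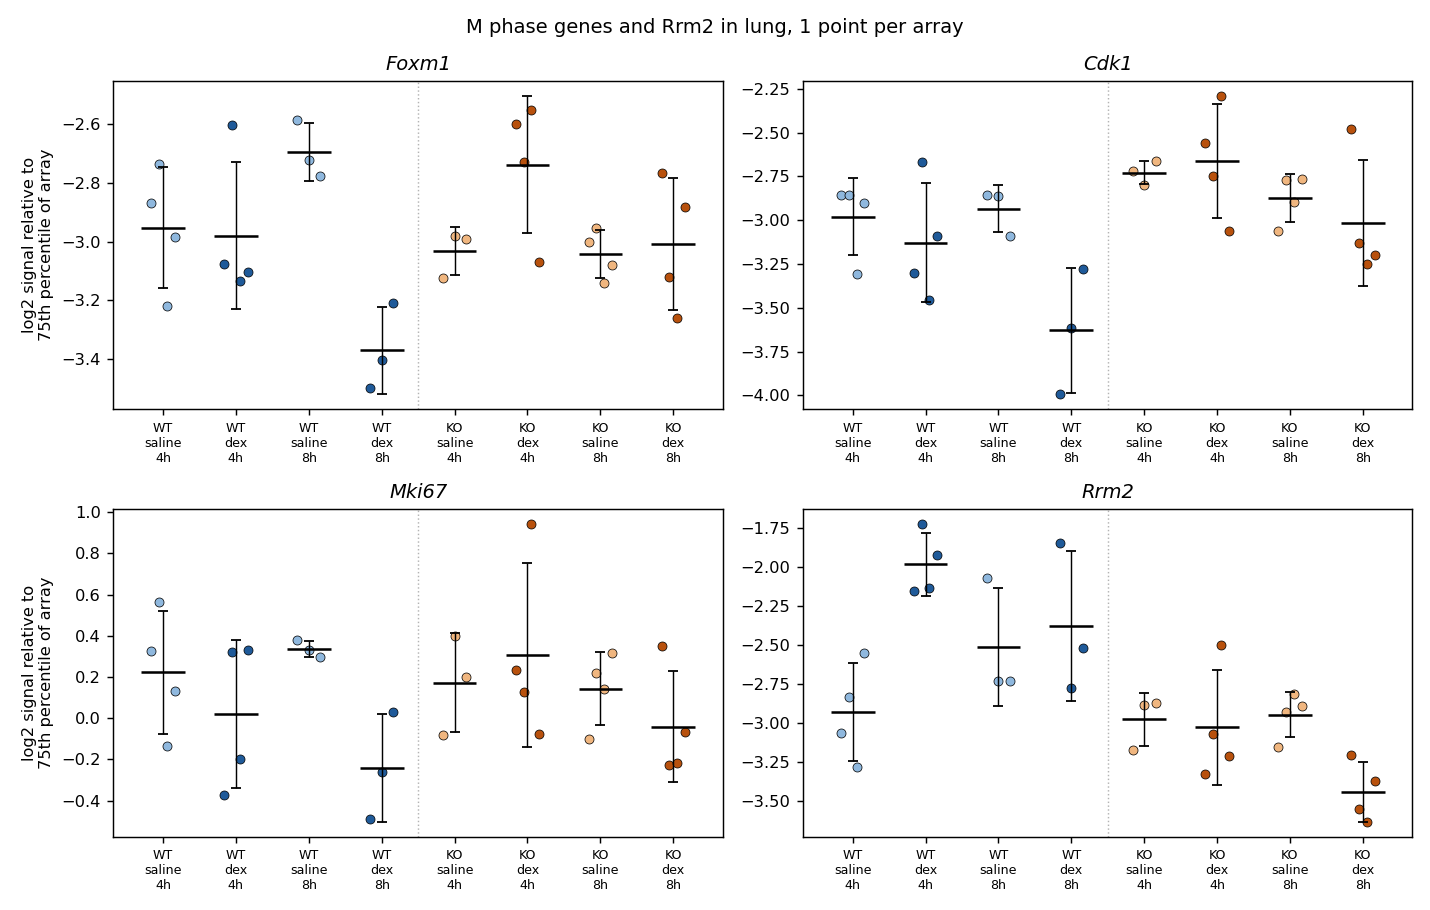
Levels of Foxm1, Cdk1, Mki67 and Rrm2 (vertical axis, log2 of signal over the array's 75th percentile) in the 8 groups (horizontal axis), with points for arrays and bars for mean and SD. Wild-type Foxm1 and Cdk1 at 8 h are lower under dexamethasone, and for Mki67 knockout replicate 59 lies at 0.94, above all other arrays.

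Between genotypes under saline at 4 h, 6 members were called, 3 higher in the knockout (Mcm2, Kif11 and Top2a) and 3 lower (Mcm4, Mcm6 and Pcna), where 24.6% of all genes were called, 5.98% higher and 18.6% lower. With quantile normalization 1 was higher and 2 were lower, and Kif11 (0.33), Top2a (0.66) and Pcna (-0.10) were not called. The count was 3 without knockout replicate 43 and 3 without knockout replicate 44. The split ran with probe brightness. Over all arrays the mean level was -1.46, -4.21 and -3.77 for Mcm2, Kif11 and Top2a, and 2.12, 2.42 and 3.30 for Mcm4, Mcm6 and Pcna. The knockout saline arrays had the lowest bright-to-dim ratios, and the part of that ratio in these differences was not tested. Under saline at 8 h, Cdkn1a was the 1 member called, where 13% of all genes were, 5.13% higher and 7.87% lower. Under dexamethasone, 1 member was called at 4 h, where 0.899% of all genes were, and 3 at 8 h (Cdkn1a and Ccnb1 higher, Rrm2 lower), where 4.92% were, 3.02% higher and 1.9% lower. Ccnb1 was higher by 0.79 at 8 h (limma adjusted p = 0.045), and none of the 7 alternatives called it. The count at 8 h was 1 without wild-type replicate 54, and with quantile normalization 1 was higher and 1 lower.

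The dexamethasone effect differed between genotypes for 4 members at 4 h (Mcm4 and Mcm6 higher, Mcm2 and Rrm2 lower), where 16.3% of all genes were called (13.1% higher and 3.11% lower), and for 1 member at 8 h (Foxm1), where 5.81% were (4.26% higher and 1.56% lower). It changed from 4 to 8 h for 2 members in wild type (Cdkn1a and Cdc6), where 5.95% of all genes were called (2.84% higher and 3.11% lower). In the knockout limma called 0 members for that change, where 3.05% of all genes were called (1.21% higher and 1.84% lower), and 8 members had an unadjusted p under 0.05. Under saline 2 members rose from 4 to 8 h (Cdkn1c and Cdc6), where 3.2% of all genes were called (2.04% higher and 1.17% lower).

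Several markers of immune, endothelial and erythroid cells were also called under dexamethasone. In whole lung RNA, fewer cells of a type and less RNA per cell cannot be told apart. Under dexamethasone, 8 of 10 T cell markers, 7 of 8 B cell markers and 7 of 7 NK cell markers fell in wild type at both times, and in the knockout 7 and 8 of 10, 7 of 8 and 7 of 7 fell at 4 and 8 h. Of all genes, 22.2% and 14.3% fell in wild type and 17.8% and 17.7% in the knockout. The mean level of the T cell markers was -2.17 to -1.36 on saline arrays and -3.38 to -2.53 on dexamethasone arrays. In the genotype comparisons under dexamethasone 0 markers of these 3 lists were called. Only 0.899% and 4.92% of all genes were called there at 4 and 8 h, so this count shows little. Of 8 endothelial markers, 6 and 4 fell in wild type at 4 and 8 h and 5 and 5 in the knockout, with 1, 0, 1 and 1 that rose. The mean level of 6 of them was 3.38 to 3.73 on saline arrays and 2.74 to 3.16 on dexamethasone arrays, without overlap. The part of these cells in the falls of the S phase genes was not tested.

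M phase levels varied together between arrays of a group. After each gene was centred on its group means, the median correlation over the 29 arrays was 0.70 among 210 pairs of M phase genes and 0.37 among 120 pairs of S phase genes, against 0.02 among all pairs of genes. Arrays share their scaling, slide and tissue makeup in these values, which are a description. Cdkn1a had a median correlation of 0.28 with S phase and 0.19 with M phase genes, and Cdkn1c of -0.24 and -0.31. The median correlation of M phase genes was 0.52 with 3 erythroid markers, 0.46 with 5 fibroblast markers, 0.36 with 5 bone marrow markers, 0.21 with 10 T cell markers and -0.16 with 6 endothelial markers. For S phase genes it was 0.40, 0.21, 0.23, 0.26 and -0.17 in the same order. Of the other lists, M phase genes had 0.30 with monocytes and neutrophils, 0.24 with B cells and 0.20 with alveolar macrophages. They had 0.12 with alveolar epithelium, 0.02 with NK cells, -0.03 with thymus and -0.27 with airway epithelium. S phase genes had 0.19, 0.22, 0.19, 0.17, 0.09, -0.03 and -0.11 in that order. Erythroid markers had the highest value of all the lists for both sets.

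In 6 of the 8 groups the array with the highest mean M phase level was also the array with the highest erythroid level. In 3 of the 8 the lowest array was the lowest in both. With 3 or 4 arrays a group some such matches can arise by chance, and their expected number was not computed. In knockout saline at 4 h, replicate 44 had the highest M phase level (-1.82) and the lowest erythroid level (-1.26). Knockout dexamethasone 4 h replicate 59 had the highest value of its group for 20 of 21 M phase genes. Its mean M phase level was -1.43 against -2.13 to -1.94 on the others of its group, and its erythroid level was 1.06 against -0.34 to -0.14. That array was also the highest of its group in monocyte and neutrophil (1.53) and bone marrow (-1.30) markers. Knockout dexamethasone 8 h replicate 61 was highest in its group for 18 of 21. Its erythroid level was 0.44, against -1.07 to 0.09 on the other 3 arrays. At 4 h in wild type, dexamethasone replicate 50 had the highest M phase (-1.94) and erythroid (0.90) levels of its group, and its Mcm5, Ccnb1 and Foxm1 were the highest there. Of 5 erythroid markers tested, dexamethasone raised 1 and 0 in wild type at 4 and 8 h, and 5 and 2 in the knockout. Of all genes 14.4% and 9.21% rose in wild type and 24.7% and 24.9% in the knockout. The knockout counts rest on the saline arrays that stood apart in their bright-to-dim ratio. The part of erythroid RNA in the M phase values was not tested.

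Of 4 other CDK inhibitor genes tested, 1 rose and 2 fell in wild type at 4 h, 1 rose and 1 fell at 8 h, and in the knockout 1 rose and 2 fell, then 2 rose and 1 fell. For reading these and the following counts for dexamethasone effects, 14.4% of all genes rose and 22.2% fell in wild type at 4 h, and 9.21% and 14.3% at 8 h. In the knockout 24.7% rose and 17.8% fell at 4 h, and 24.9% and 17.7% at 8 h. Cdkn2b, the INK4 inhibitor p15, fell by 1.28 in wild type and by 0.71 in the knockout at 4 h and was not called at 8 h, with estimates of 0.22 and 0.16. Cdkn2c, the INK4 inhibitor p18, fell by 0.92 and 0.35 in wild type and by 0.53 and 0.41 in the knockout at 4 and 8 h. Cdkn1b rose by 0.42 and 0.69 in wild type at 4 and 8 h and by 0.36 in the knockout at 8 h, while its dimmest probe was called in none of these 3, and 1 wild-type saline array at 4 h held no value. Cdkn2d rose in the knockout alone by the test, by 0.46 and 0.48, with wild-type estimates of 0.02 and 0.04, and the difference of effects (0.45 and 0.44) was not called.

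Of 15 p53 and stress genes, dexamethasone raised 6 and lowered 5 in wild type at 4 h, and raised 5 and lowered 3 at 8 h. In the knockout 7 rose and 2 fell at 4 h, and 6 rose and 3 fell at 8 h. The share called was 73.3%, 53.3%, 60% and 60% of the list, beside 36.6%, 23.5%, 42.4% and 42.6% of all genes. The shares that fell in the knockout were near those of all genes. This list and those that follow were chosen with earlier results of these data known, so their shares are a description. Gadd45g, a stress-induced growth arrest gene, rose by 2.61 and 0.69 in wild type and by 2.96 and 1.92 in the knockout at 4 and 8 h. Trp53inp1, which encodes a p53-induced nuclear protein, rose by 2.39 and 1.31 in wild type and by 2.65 and 1.92 in the knockout. Sesn1, a p53 target that restrains mTORC1, rose by 1.60 and 0.58 in wild type and by 2.24 and 1.4995 in the knockout, but its dimmest probe was not called at 8 h. Phlda3, another p53 target, fell in all 4 comparisons, by 0.78, 0.44, 0.87 and 0.65.

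At 8 h under dexamethasone 4 of the 15 were higher in the knockout and 0 were lower, where 3.02% and 1.9% of all genes were. The 4 were Gadd45g by 1.08, Sesn1 by 0.79, Trp53inp1 by 0.56 and Sesn2, a sestrin induced by stress, by 0.47. The Sesn1 difference was not called with its dimmest probe, nor the Sesn2 one with normexp, in the deposited table or with slide as a block. Cdkn1a was higher there by 1.18. The difference of the dexamethasone effects at 8 h was called for Gadd45g at 1.23, for Sesn1 at 0.92 and for Trp53inp1 at 0.61. The Sesn1 and Trp53inp1 differences of effects were not called after quantile normalization, the Sesn1 one was -0.13 with its dimmest probe, and the Gadd45g call held in every alternative and every fit without 1 array.

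Among 16 other G1 cyclin, retinoblastoma family and E2F genes, 1 rose and 6 fell in wild type at 4 h and 2 rose and 7 fell at 8 h, and in the knockout 2 rose and 6 fell, then 3 rose and 7 fell. The share called was 43.8%, 56.2%, 50% and 62.5%, beside 36.6%, 23.5%, 42.4% and 42.6% of all genes. Cdk4, the D-type cyclin kinase, fell in all 4 comparisons, by 0.50, 0.38, 0.59 and 0.49. Ccnd2, cyclin D2, fell by 0.58 and 0.86 in wild type, and in the knockout by 0.60 at 8 h. Rbl1, the pocket protein p107, fell in all 4, by 0.88, 0.71, 0.48 and 0.64. Rbl2, the pocket protein p130, rose in wild type by 0.51 and 0.58 and fell in the knockout at 4 h by 0.41, with a difference of effects of -0.93 at 4 h and -0.80 at 8 h, and its 4 h calls ended with its dimmest probe.

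Among 28 other S phase genes, 2 rose and 7 fell in wild type at 4 h, 1 rose and 8 fell at 8 h, and in the knockout 4 rose and 6 fell, then 2 rose and 10 fell. The share called was 32.1%, 32.1%, 35.7% and 42.9%, beside 36.6%, 23.5%, 42.4% and 42.6% of all genes, so it lay below or near that of all genes except in wild type at 8 h. Rfc3, a clamp loader subunit, fell by 0.99 and 0.58 in wild type and by 0.97 and 0.85 in the knockout. Pola2, of the DNA polymerase alpha and primase complex, fell by 0.49, 0.46, 1.19 and 0.996 in the same order, and Dut, which removes dUTP, by 0.64, 0.67, 0.35 and 0.37. Among 45 other M phase genes, 4 rose and 7 fell in wild type at 4 h and 1 rose and 14 fell at 8 h. In the knockout 4 rose and 8 fell at 4 h, and 3 rose and 9 fell at 8 h. The share called was 24.4%, 33.3%, 26.7% and 26.7%, below that of all genes except in wild type at 8 h. Ncaph, a condensin subunit, fell by 0.91, 0.78, 0.69 and 0.93 in wild type at 4 and 8 h and the knockout at 4 and 8 h. Spc24, of the NDC80 kinetochore complex, went the other way and rose in all 4 comparisons, by 1.31, 0.91, 1.11 and 0.96.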

How the data were processed

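RNA of 29 lung samples was hybridised to 29 single-colour Agilent arrays on 8 slides. Per the file headers, spot intensity was extracted with Agilent Feature Extraction 10.7.3.1, and per the submitters' processing notes with version 10.6. The deposited processed intensity is background-subtracted and not normalized between arrays. The deposited series table holds log2 values made by a method that the sources used here do not give, and served as an alternative.

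Groups came from the labels. Control spots and outlier spots were left out, and the processed signal was divided by each array's 75th percentile and taken to log2. Of 41174 probes, 24844 matched 1 gene by accession and 16330 none. Probes had to be well above background on 3 or more arrays of a group and the brightest per gene was used. Group means were fitted over all 8 groups with limma 3.58.1 in R 4.3.3, with Benjamini-Hochberg adjustment over 15357 genes and a threshold of 0.05, in 13 comparisons. The fit was tested on simulated data. The number of arrays limits the precision.

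Alternatives were quantile normalization, normexp (offset 50, on the median spot signal) with quantile normalization, no filter on dim probes, the mean of a gene's probes, its dimmest probe, the deposited table, slide as a fixed block, and fits without each array in turn. The members and the lists were chosen with earlier results of these data known. Every member could be named. From each wider list up to 3 genes with the lowest p per comparison could be named.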

Additional observations from a re-analysis of the deposited data

Results flagged for a closer look

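In 195 tests of a member in a group of 4 arrays for a single outlying array, 16 (8.21%) found one by Dixon's criterion, where chance gives about 1 in 20 (5%). On knockout saline 8 h replicate 47, Cdkn1c was the lowest at 2.16 (others 2.33 to 2.36). On wild-type dexamethasone 4 h replicate 50, Mcm5 was the highest at 0.07 (others -0.39 to -0.33), Ccnb1 was the highest at -3.79 (others -4.52 to -4.40) and Foxm1 was the highest at -2.60 (others -3.13 to -3.08). On wild-type saline 4 h replicate 35, Mcm7 was the lowest at 1.77 (others 1.96 to 1.996), E2f1 was the lowest at -2.23 (others -1.998 to -1.97), Cdk1 was the lowest at -3.31 (others -2.90 to -2.85) and Kif20a was the lowest at -2.18 (others -1.69 to -1.64). On knockout dexamethasone 4 h replicate 60, Ccne2 was the lowest at -4.02 (others -3.82 to -3.78). On knockout dexamethasone 8 h replicate 61, Cdk1 was the highest at -2.48 (others -3.25 to -3.13), Ccnb2 was the highest at -0.09 (others -0.62 to -0.54) and Top2a was the highest at -3.38 (others -4.23 to -4.19). On wild-type saline 4 h replicate 34, Ccnb1 was the highest at -3.74 (others -3.92 to -3.92). On knockout dexamethasone 8 h replicate 62, Bub1 was the highest at -0.35 (others -0.96 to -0.90). On knockout saline 8 h replicate 45, Cdca3 was the lowest at -2.57 (others -2.10 to -2.03) and Tpx2 was the lowest at -2.68 (others -2.44 to -2.43).

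The dexamethasone effect differed by the test between times or genotypes for the members named next. From 4 to 8 h in wild type, the effect changed by -1.32 for Cdkn1a and by -0.66 for Cdc6. Between genotypes at 4 h, it differed (knockout minus wild type) by -0.63 for Mcm2, 0.50 for Mcm4, 0.55 for Mcm6 and -0.999 for Rrm2. At 8 h it differed by 0.71 for Foxm1. Only the Cdkn1a difference was called in every alternative and every fit without 1 array.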

How the results depend on the processing

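Of 76 member calls in 13 comparisons, 36 were made in all 7 alternatives and all 29 fits without 1 array, among them 31 of the 56 calls for dexamethasone effects, and 75 kept their sign in every alternative. The exception was Bub1 in wild type at 4 h, with -0.039 for the mean of its probes and -0.94 for the dimmest. With its dimmest probe Sesn1 turned to 0.31 (saline genotype difference, 4 h), -0.24 and -0.13 (difference of effects between genotypes, 4 and 8 h). Counts of members called for the 4 dexamethasone effects stayed within 1.5 times in the 7 alternatives. Under saline at 4 h, 2 members were called with normexp, 2 in the deposited table and 3 with quantile normalization. At 8 h, 2 were called with quantile normalization, 2 with the mean of probes, 2 with the dimmest probe and 5 with slide as a block. Under dexamethasone at 8 h, 1 was called with slide as a block, and normexp and the deposited table each gave 1 higher and 1 lower. For differences of effects between genotypes at 4 h, the count was 0 with normexp and in the deposited table, and 2 with quantile normalization and with slide as a block. At 8 h it was 0 in each of these 4 settings. For the change of effect from 4 to 8 h, the count in wild type was 1 with quantile normalization, normexp or the deposited table and 8 with slide as a block. In the knockout it was 1 with the dimmest probe, 2 with the mean of probes and 2 with slide as a block. For saline 8 against 4 h, it was 1 with quantile normalization, normexp or the deposited table. Leaving out 1 array gave 12 to 16 and 9 to 19 calls in wild type at 4 and 8 h, 7 to 12 and 11 to 15 in the knockout, 3 to 6 and 0 to 2 between genotypes under saline, and 1 to 1 and 1 to 3 under dexamethasone. It gave 2 to 6 and 0 to 2 for differences of effects between genotypes, 1 to 3 and 0 to 2 for changes of effect over time in wild type and knockout, and 1 to 2 for saline over time. The cause of these shifts was not tested. No paired analysis was possible because the groups share no replicate numbers, while slides, which groups do share, were fitted as a block. All 39 members were well above background on all arrays, and 3 or 4 arrays per group limit every comparison.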
